A study of Homo sapiens with 8 samples.

Results

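The base excision repair genes described here were the 9 members XRCC1, POLB, APEX1, OGG1, UNG, NEIL1, NEIL3, MPG and NTHL1, taken by name from the expression table of 31721 genes through their Ensembl identifiers. Polyadenylated RNA was sequenced from A2780, an established cell line from a human ovarian carcinoma, treated for 24 hours. The groups were olaparib, palbociclib, the combination of both drugs, and the solvent DMSO, with 2 libraries each. Olaparib blocks PARP1 and PARP2, the enzymes that add poly(ADP-ribose) at the strand breaks base excision repair makes, and palbociclib blocks CDK4 and CDK6, the kinases that cyclin D activates in G1. Doses are not given in the sources used here, every group carries the background of the same line, and the DMSO libraries are shared by all comparisons with DMSO. The labels call the repeats biological but do not say that they came from separate cultures, so p-values measure the spread between these libraries, which may be technical.

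Base excision repair removes single damaged bases, such as uracil left by deamination, oxidised guanine and alkylated purines. A DNA glycosylase cuts the damaged base from its sugar, an endonuclease opens the strand at the empty site, a polymerase fills the gap and a ligase seals it, with XRCC1 holding the late factors together. PARP1 and PARP2, the targets of olaparib, bind at the opened strand, and several enzymes of the later steps also serve DNA replication.

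Values are the authors' FPKM, fragments scaled to a length per gene and to a factor per library. The length that gave back whole reads was that of all annotated exons of a gene joined. It was 8733 bases for OGG1 and 6938 for NEIL1, against 2959 for NEIL3 and 1661 for MPG. Levels compared between genes therefore depend on the annotation, and a long joined length lowers the FPKM. The FPKM of a library summed to between 264453 and 295656. For 28635 genes, which include all 9 members, the FPKM could be turned back into whole reads with GENCODE v29 exon lengths, and those reads summed to between 18158713 and 30122425 per library. The factor per library in the deposited FPKM differed by at most 0.132% from a median-of-ratios size factor of those reads. NEIL1 rested on 177 to 323 reads per library, POLB on 155 to 289 and NEIL3 on 152 to 473, the fewest among the members, while APEX1 rested on 7086 to 12987. Of the epithelial markers, CDH1 averaged 0.00442, KRT8 0.173 and EPCAM 0.555 FPKM over the 8 libraries, so the epithelial morphology given in the labels was not matched by its defining transcripts, while VIM averaged 291.9 FPKM. The 5 epithelial markers analysed summed to between 0.528 and 0.645 FPKM with olaparib, 1.10 and 1.12 with palbociclib, 1.18 and 1.40 with the combination, and 0.423 and 0.453 with DMSO, and their part in the results was not tested. The 4 mesenchymal markers summed to between 245.1 and 252.5 FPKM with olaparib, 335.1 and 359.4 with palbociclib, 347.9 and 348.2 with the combination, and 257.3 and 261.6 with DMSO, and their part was not tested either. VIM made up most of these sums, and FN1 fell under the filter of the test. With palbociclib and the combination against DMSO, log2 fold changes were 0.43 and 0.44 for VIM and 0.21 and 0.08 for CDH2. Those of ZEB1 were -0.08 and -0.15. VIM passed the limma threshold with both treatments, CDH2 with palbociclib only and ZEB1 with neither. The 3 Mullerian or ovarian tumour markers analysed were also low. They summed to between 0.280 and 0.325 FPKM with olaparib, 0.467 and 0.526 with palbociclib, 0.558 and 0.746 with the combination, and 0.205 and 0.268 with DMSO. The 4 fibroblast markers summed to between 48.1 and 59.7 FPKM over all libraries, the 3 leukocyte markers analysed to between 0.292 and 0.552, and the 3 endothelial markers to between 0.00370 and 0.0169. In bulk samples, fewer cells of a type and less RNA per cell cannot be told apart.

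The members spanned a wide range of levels. In DMSO, APEX1, which cuts the strand at the empty site, averaged 213.8 ± 2.77 FPKM, and UNG, the main uracil glycosylase, averaged 40.3 ± 2.65 FPKM (SD, n = 2 each). MPG, XRCC1 and NTHL1 followed at 13.7 ± 0.111, 11.5 ± 0.311 and 11.3 ± 0.310 FPKM, and the DMSO libraries of XRCC1 and NTHL1 overlapped. NEIL3 averaged 5.005 ± 0.124, OGG1 4.70 ± 0.168, POLB 2.09 ± 0.108 and NEIL1 0.982 ± 0.167 FPKM, with each gene's DMSO libraries apart from those of its neighbours in this order. With palbociclib and with the combination, OGG1 stood above NEIL3, at 4.20 ± 0.0559 against 2.41 ± 0.0101 FPKM with palbociclib and 4.02 ± 0.0657 against 2.26 ± 0.116 FPKM with the combination. With olaparib the libraries of NEIL3 and OGG1 overlapped. In reads, OGG1 had 1302 and 1244 in the DMSO libraries against 473 and 445 for NEIL3, so their order in DMSO rests on the length used.

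**Figure D1:**
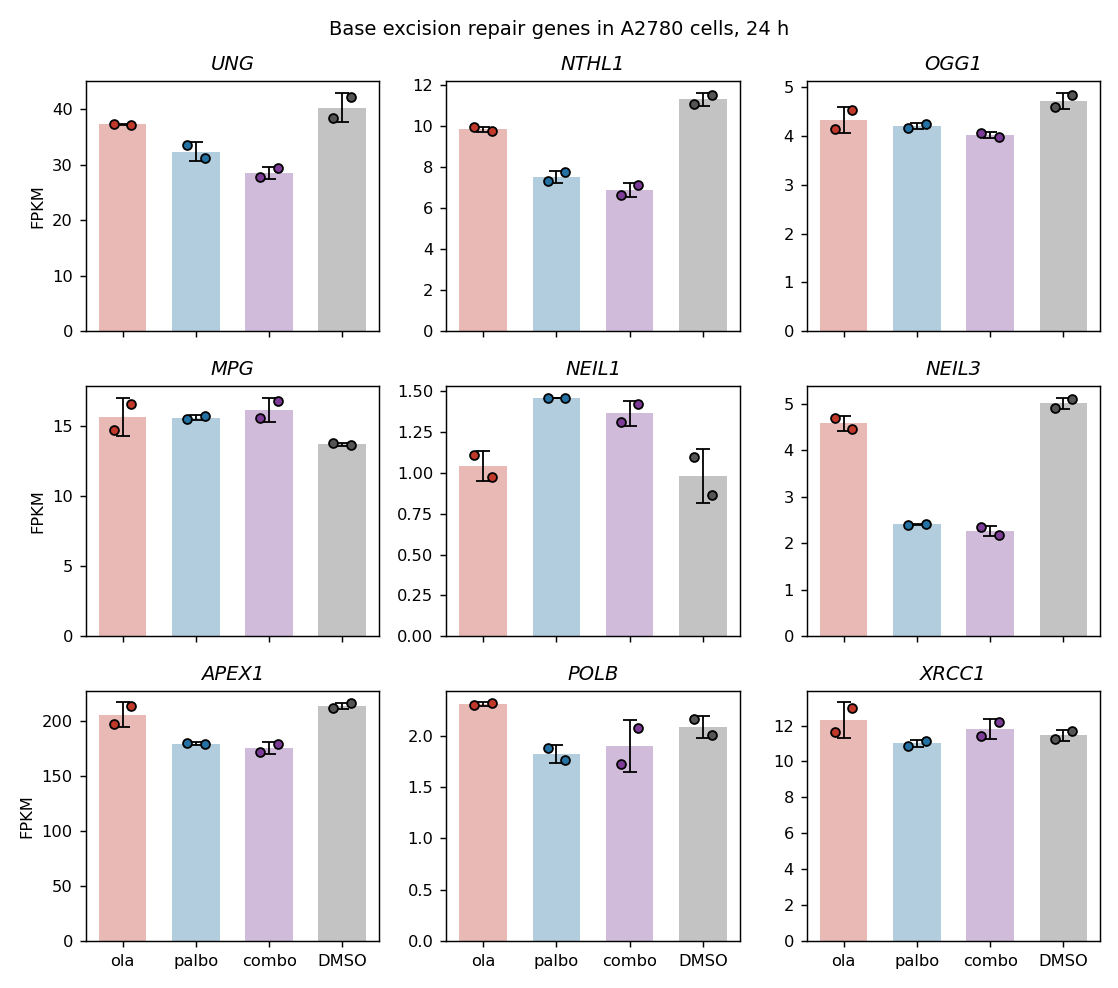
FPKM of the 9 members after 24 hours, 1 panel a gene, with the groups olaparib, palbociclib, combination and DMSO from left to right on the horizontal axis. Bars are means of 2 libraries, error bars are SD and points are libraries; each vertical axis starts at 0 and has its own scale, and NEIL3 averaged 2.41 FPKM with palbociclib and 2.26 with the combination, against 5.005 with DMSO.

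After 24 hours with palbociclib, 4 of the 9 members fell and 2 rose against DMSO. NEIL3, NTHL1, UNG and APEX1 were the lower ones, and NEIL1 and MPG the higher ones. With the combination 5 fell (the same 4 and OGG1) and 1, MPG, rose. With olaparib alone 1 member, NTHL1, fell and none rose. A member was called at a limma adjusted p under 0.05, adjusted over all 12443 genes with a mean of at least 1 FPKM, and all 9 members were among the genes tested, NEIL1 with a mean of 1.21 FPKM.

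These counts have to be read against a background in which a large part of all genes was called. With palbociclib 50.1% of all genes tested were called, 31.4% lower and 18.7% higher, so 6 called members of 9 are near the background and are no result about the members. With the combination 56.8% were called, 35.3% lower and 21.5% higher, and 6 of 9 members are again near it. With olaparib 14.6% were called, 10.5% lower and 4.13% higher, against 1 of 9 members. The median log2 fold change of the members was -0.06 with olaparib, -0.13 with palbociclib and -0.18 with the combination, against -0.03, -0.05 and -0.06 for all genes. The split of all calls depended on the scaling: of the genes called, 28.2% were higher with olaparib, 37.3% with palbociclib and 37.8% with the combination as deposited, against 66.5%, 56.1% and 57.4% after scaling to an equal total per library (TPM) and 60.2%, 46.5% and 46.9% after quantile normalisation. The fold changes below are differences of log2(FPKM + 1), which understate the change of genes with low levels such as NEIL1 and POLB.

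**Figure D2:**
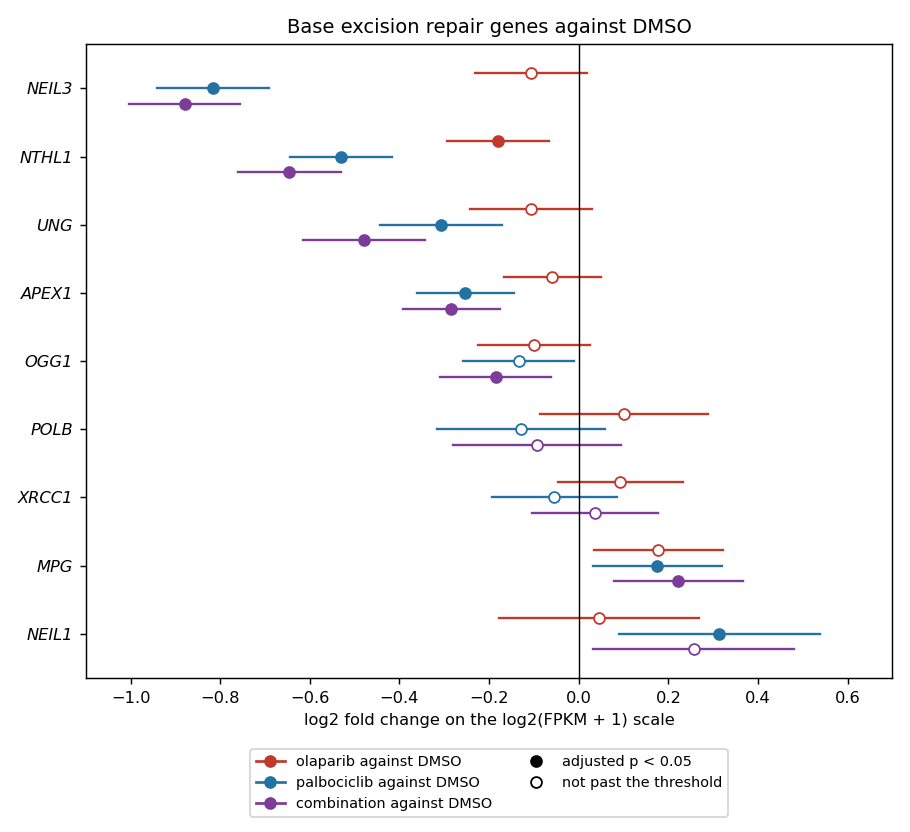
Log2 fold change against DMSO on the log2(FPKM + 1) scale, with 95% intervals from limma, for the 9 members with olaparib, palbociclib and the combination (n = 2 libraries a group). Filled points passed an adjusted p of 0.05; NEIL3 lies farthest to the left at -0.82 with palbociclib and -0.88 with the combination, and NEIL1 farthest to the right at 0.31 with palbociclib.

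NEIL3 showed the largest fold change of the members against DMSO. It is a glycosylase of oxidised bases in single-stranded DNA and at interstrand crosslinks, known for its expression in dividing cells. NEIL3 had 4.69 and 4.47 FPKM with olaparib, 2.40 and 2.42 with palbociclib, 2.35 and 2.18 with both drugs, against 4.92 and 5.09 with DMSO. All libraries with palbociclib lay below all libraries without it, and the palbociclib mean was 48.1% and the combination mean 45.3% of the DMSO mean. On the log2 scale NEIL3 changed by -0.82 ± 0.05 with palbociclib (SE; limma adjusted p = 6.42e-05), -0.88 ± 0.05 with the combination (limma adjusted p = 2.55e-05) and -0.11 ± 0.05 with olaparib (limma adjusted p = 0.214). With olaparib both libraries lay below both DMSO libraries, but the difference did not pass the test.

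NTHL1, the glycosylase of oxidised pyrimidines, was the member called under all 3 treatments. It had 9.96 and 9.78 FPKM with olaparib, 7.31 and 7.75 with palbociclib, 6.64 and 7.12 with both drugs, against 11.1 and 11.5 with DMSO. The libraries of every treatment lay below both DMSO libraries, and the means were 87.2%, 66.5% and 60.8% of the DMSO mean with olaparib, palbociclib and the combination. On the log2 scale NTHL1 changed by -0.53 ± 0.05 with palbociclib (SE; limma adjusted p = 0.000194) and -0.65 ± 0.05 with the combination (limma adjusted p = 5.43e-05). The fold change with olaparib was -0.18 ± 0.05, with a limma adjusted p of 0.0498 just under the threshold. That olaparib call was lost without DMSO replicate 1 (-0.21, adjusted p = 0.143), DMSO replicate 2 (-0.16, 0.230), olaparib replicate 1 (-0.19, 0.112), olaparib replicate 2 (-0.17, 0.178), palbociclib replicate 1 (-0.18, 0.0663) or palbociclib replicate 2 (-0.18, 0.0661), while the fold change stayed between -0.21 and -0.13 under all 16 alternatives run. It was lost as well on TPM (-0.13, 0.138), after quantile normalisation (-0.13, 0.137), with a pseudocount of 0.1 FPKM (0.0530), with no filter (0.118) or a filter at 0.5 FPKM (0.0614), and with only the olaparib and DMSO libraries in the fit (0.0578).

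UNG removes uracil from DNA, and its nuclear form acts at replication forks. The gene had 37.3 and 37.2 FPKM with olaparib, 33.6 and 31.1 with palbociclib, 27.8 and 29.3 with both drugs, against 38.4 and 42.1 with DMSO. The combination libraries were the lowest of all and did not overlap with those of palbociclib or of any other group. Its log2 fold change was -0.31 ± 0.06 with palbociclib (SE; limma adjusted p = 0.00412), -0.48 ± 0.06 with the combination (limma adjusted p = 0.000403) and -0.11 ± 0.06 with olaparib (limma adjusted p = 0.247). After quantile normalisation the fold change was smaller, at -0.16 with palbociclib (limma adjusted p = 0.0361) and -0.27 with the combination (limma adjusted p = 0.00356). The table gives 1 value for the gene, so its nuclear and mitochondrial forms, which are known to start at different promoters, were not told apart.

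APEX1, the endonuclease that cuts next to the empty site, was the most abundant member in every group. It had 197.3 and 213.3 FPKM with olaparib, 180.0 and 178.5 with palbociclib, 171.6 and 179.1 with both drugs, against 211.8 and 215.7 with DMSO. The palbociclib and combination libraries lay below those of DMSO, and the olaparib libraries overlapped with DMSO. As a log2 fold change this was -0.25 ± 0.05 with palbociclib (SE; limma adjusted p = 0.00362), -0.28 ± 0.05 with the combination (limma adjusted p = 0.00164) and -0.06 ± 0.05 with olaparib (limma adjusted p = 0.422). Both calls were lost after quantile normalisation, where APEX1 was at -0.07 with palbociclib (limma adjusted p = 0.111) and -0.00 with the combination (limma adjusted p = 0.953). On TPM they held, at -0.15 with either (limma adjusted p = 0.0139 and 0.0136). Relative to the median of all genes, APEX1 stood at -0.20 as deposited and -0.19 on TPM with palbociclib. With the combination these values were -0.22 and -0.21.

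OGG1, the glycosylase of oxidised guanine, passed the test with the combination. It had 4.14 and 4.52 FPKM with olaparib, 4.16 and 4.24 with palbociclib, 4.06 and 3.97 with both drugs, against 4.59 and 4.82 with DMSO. All 6 treated libraries lay below both DMSO libraries. Log2 fold changes of OGG1 were -0.18 ± 0.05 with the combination (SE; limma adjusted p = 0.0199), -0.13 ± 0.05 with palbociclib (limma adjusted p = 0.0697) and -0.10 ± 0.05 with olaparib (limma adjusted p = 0.238). The combination call was lost without DMSO replicate 2 (-0.15, adjusted p = 0.114), without combination replicate 2 (-0.17, 0.0771) on TPM (-0.08, 0.298) and with no filter on low genes (0.0509). The palbociclib value passed with voom, limma's fit of counts, on the recovered reads (-0.16, 0.0323) and after quantile normalisation (-0.15, 0.0453). Relative to the median of all genes, the combination value of OGG1 was -0.12 as deposited and -0.14 on TPM.

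MPG, the glycosylase of alkylated purines, was higher with each treatment in level. It had 14.7 and 16.6 FPKM with olaparib, 15.5 and 15.7 with palbociclib, 15.6 and 16.8 with both drugs, against 13.8 and 13.6 with DMSO. All 6 treated libraries lay above both DMSO libraries. Log2 fold changes of MPG were 0.18 ± 0.06 with palbociclib (SE; limma adjusted p = 0.0476), 0.22 ± 0.06 with the combination (limma adjusted p = 0.0174) and 0.18 ± 0.06 with olaparib (limma adjusted p = 0.0945). The palbociclib call was lost without DMSO replicate 1 (0.18, adjusted p = 0.129), DMSO replicate 2 (0.17, 0.160), palbociclib replicate 1 (0.19, 0.119) or palbociclib replicate 2 (0.16, 0.162). It was also lost with no filter on low genes (0.122) or a filter at 0.5 FPKM (0.0577). The combination call was lost with no filter (0.0535) and without DMSO replicate 1 (0.23, 0.0628), DMSO replicate 2 (0.21, 0.0781) or combination replicate 2 (0.17, 0.0882). On TPM the fold change was larger, at 0.29 with palbociclib (limma adjusted p = 0.00504), 0.37 with the combination (limma adjusted p = 0.00117) and 0.25 with olaparib (limma adjusted p = 0.0357). The median of all genes was also higher on TPM. Above that median, MPG stood 0.22 as deposited and 0.24 on TPM with palbociclib, 0.28 and 0.31 with the combination, and 0.21 and 0.22 with olaparib. After quantile normalisation it was 0.27 with palbociclib, 0.36 with the combination and 0.22 with olaparib, with limma adjusted p of 0.00491, 0.00104 and 0.0498.

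NEIL1, a glycosylase of oxidised pyrimidines, had the lowest FPKM of the members and rose with palbociclib. It had 1.11 and 0.975 FPKM with olaparib, 1.46 in both libraries with palbociclib, 1.31 and 1.42 with both drugs, against 1.10 and 0.864 with DMSO. The palbociclib and combination libraries lay above those of DMSO, and the olaparib libraries overlapped with them. The log2 fold change of NEIL1 was 0.31 ± 0.09 with palbociclib (SE; limma adjusted p = 0.0290), 0.26 ± 0.09 with the combination (limma adjusted p = 0.0526) and 0.05 ± 0.09 with olaparib (limma adjusted p = 0.781). The palbociclib call was lost without DMSO replicate 2 (0.23, adjusted p = 0.160), palbociclib replicate 1 (0.31, 0.0954) or palbociclib replicate 2 (0.31, 0.101), and also with no filter on low genes (0.0898), after quantile normalisation (0.21, 0.0983) and with only the palbociclib and DMSO libraries in the fit (0.0517). The combination value passed without DMSO replicate 1 (0.34, 0.0493), on TPM (0.50, 0.0231) and with a filter at 0.5 FPKM (0.0492), with adjusted p from limma. On the recovered reads, where no pseudocount of 1 FPKM enters, voom gave NEIL1 a change of 0.57 with palbociclib (adjusted p = 0.000345) and 0.48 with the combination (adjusted p = 0.00220).

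POLB, the polymerase that fills the gap, and XRCC1, the scaffold of the late steps, did not pass the test against DMSO under any treatment. POLB had 2.30 and 2.32 FPKM with olaparib, 1.89 and 1.76 with palbociclib, 1.72 and 2.08 with both drugs, against 2.16 and 2.01 with DMSO. Its palbociclib libraries lay below and its olaparib libraries above those of DMSO, while the combination libraries overlapped with them. The log2 fold change of POLB was 0.10 ± 0.08 with olaparib (95% interval -0.09 to 0.29), -0.13 ± 0.08 with palbociclib (-0.32 to 0.06) and -0.09 ± 0.08 with the combination (-0.28 to 0.10), with limma adjusted p of 0.427, 0.218 and 0.352. XRCC1 had 11.6 and 13.0 FPKM with olaparib, 10.9 and 11.1 with palbociclib, 11.4 and 12.2 with both drugs, against 11.2 and 11.7 with DMSO. The palbociclib libraries of XRCC1 lay below those of DMSO and the others overlapped with them. The log2 fold change of XRCC1 was 0.09 ± 0.06 with olaparib (limma adjusted p = 0.327), -0.05 ± 0.06 with palbociclib (limma adjusted p = 0.478; 0.04 on TPM and 0.02 after quantile normalisation, so its sign turned) and 0.04 ± 0.06 with the combination (limma adjusted p = 0.627; 0.18 with adjusted p = 0.0310 on TPM and 0.15 with 0.0486 after quantile normalisation). With the combination, the median of all genes was -0.06 as deposited and 0.06 on TPM, and XRCC1 stood 0.10 above that median as deposited and 0.12 above it on TPM.

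The comparison of the combination with each drug alone asks what the second drug added. Against olaparib alone 4 of the 9 members fell and none rose, where 44.4% of all genes tested were called, 27.4% lower and 17% higher, so 4 of 9 members are at the background. The log2 fold change was -0.77 ± 0.05 for NEIL3 (SE; limma adjusted p = 0.000102), -0.46 ± 0.05 for NTHL1 (limma adjusted p = 0.000454), -0.37 ± 0.06 for UNG (limma adjusted p = 0.00227) and -0.23 ± 0.05 for APEX1 (limma adjusted p = 0.00720). APEX1 again lost its call after quantile normalisation (-0.05, limma adjusted p = 0.257), where UNG was at -0.23 (limma adjusted p = 0.0107). On TPM the APEX1 call held (-0.15, limma adjusted p = 0.0164). The combination libraries of POLB lay below the olaparib ones, with a difference of -0.19 ± 0.08 on the log2 scale (limma adjusted p = 0.0873; -0.28 with adjusted p = 0.0411 without combination replicate 2, and -0.26 with 0.0445 after quantile normalisation). The other values were 0.21 ± 0.09 for NEIL1 (limma adjusted p = 0.109; 0.40 with adjusted p = 0.0134 with voom), -0.09 for OGG1 (limma adjusted p = 0.226), 0.04 for MPG (limma adjusted p = 0.580) and -0.06 for XRCC1 (limma adjusted p = 0.472; 0.02 on TPM and 0.02 after quantile normalisation).

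Against palbociclib alone, no member of the 9 passed the test in limma or in voom, and 2, UNG and NTHL1, had an unadjusted p under 0.05. Of all genes tested 0.0241% were called, 0.0161% lower and 0.00804% higher, so the members' count is near the background. UNG differed by -0.17 ± 0.06 (95% interval -0.31 to -0.04, limma adjusted p = 0.218) and NTHL1 by -0.12 ± 0.05 (-0.23 to -0.00, limma adjusted p = 0.297). The combination libraries lay below the palbociclib ones in UNG, NTHL1, OGG1, NEIL1 and NEIL3, above them in XRCC1, and overlapped with them in the other members. The share of all genes whose libraries lay apart in this way was not computed. The 95% interval of the difference was -0.19 to 0.06 for NEIL3, -0.17 to 0.07 for OGG1, -0.14 to 0.08 for APEX1, -0.28 to 0.17 for NEIL1, -0.10 to 0.19 for MPG, -0.05 to 0.23 for XRCC1 and -0.15 to 0.22 for POLB. A test of whether the combination departed from the sum of the single-drug log2 changes also called no member in limma, where 0.00804% of all genes were called, with none at an unadjusted p under 0.05. With voom, which called 43 of 11140 genes, no member was called either. The departures ran from -0.13 ± 0.09 for MPG (limma adjusted p = 0.586) to 0.07 ± 0.07 for NTHL1 (limma adjusted p = 0.730), and with 2 libraries a group such a p does not show that the effects add.

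Windows before the start of transcription are shown for UNG, NEIL3 and NTHL1, the members whose fall against DMSO with palbociclib and with the combination was called under all 16 alternatives run. They come from RefSeq on GRCh38.p14, 5′ to 3′ on the strand of the gene, and capitals mark letters searched for on both strands in the 250 bases before the start. The letters of 4 E2F-type motifs were TTTCCCGC, TTTCGCGC, TTTGCCGC and TTTGGCGC, which 2.79% of 35116 windows in the table held, and those of the cell cycle homology region were TTTGAA and TTCGAA, which 14.3% held. No motif overlapped with the other. Gene positions are those of GENCODE v29 on GRCh38. Each sequence below is cut where annotated exon bases run to the end of its window, or after a match there. It therefore ends before the start, and match positions count from the end of the full 250 bases. UNG (chr12:109097574-109110992, plus strand) has 2 windows, printed for chr12:109097347-109097573 (227 bases) and chr12:109097922-109098117 (196 bases). NEIL3 (chr4:177309836-177362943, plus strand) has 1, printed for chr4:177309624-177309855 (232 bases), whose last 20 bases lie in its first exon. NTHL1 (chr16:2039815-2047866, minus strand) has 1, printed for chr16:2047867-2048084 (218 bases).
UNG, first start: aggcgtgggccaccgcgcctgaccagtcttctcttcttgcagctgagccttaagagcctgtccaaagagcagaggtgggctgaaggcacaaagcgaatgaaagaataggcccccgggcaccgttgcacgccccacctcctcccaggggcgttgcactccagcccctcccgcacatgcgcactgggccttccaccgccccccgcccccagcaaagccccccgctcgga
UNG, second start: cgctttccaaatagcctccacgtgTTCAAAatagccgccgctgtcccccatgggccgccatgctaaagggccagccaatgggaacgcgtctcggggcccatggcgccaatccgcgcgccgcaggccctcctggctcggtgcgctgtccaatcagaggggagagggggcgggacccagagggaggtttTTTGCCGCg
NEIL3: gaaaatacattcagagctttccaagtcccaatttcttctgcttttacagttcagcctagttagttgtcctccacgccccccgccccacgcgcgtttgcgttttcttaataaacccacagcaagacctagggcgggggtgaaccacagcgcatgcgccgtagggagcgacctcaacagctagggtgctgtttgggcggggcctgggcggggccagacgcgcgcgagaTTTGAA
NTHL1: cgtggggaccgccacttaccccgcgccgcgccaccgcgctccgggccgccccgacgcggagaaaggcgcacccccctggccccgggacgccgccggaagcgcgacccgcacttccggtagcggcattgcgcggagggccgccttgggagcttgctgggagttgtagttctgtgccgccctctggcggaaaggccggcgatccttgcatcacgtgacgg
In the second UNG window TTTGCCGC lies at -63 to -56 from the start and TTTGAA, read on the opposite strand and shown as its reverse complement TTCAAA, at -226 to -221. NEIL3 holds TTTGAA at -24 to -19, and no letters searched for were found in the NTHL1 window or the first UNG window. Among the other members whose windows were searched, XRCC1, which did not pass the test, holds TTTGAA at -67 to -62. The windows of MPG, OGG1, APEX1 and NEIL1 hold none. A match is a description of letters only.

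The neighbours of the members matter here because reads of overlapping genes on opposite strands cannot be told apart where strand was not used, and the sources used here do not state whether it was. NTHL1 (ENSG00000065057) shares 402 exon bases with TSC2, a growth-signalling inhibitor on the opposite strand, whose starts lie 401 bases apart. TSC2 moved the other way from NTHL1, by 0.24 ± 0.05 on the log2 scale with palbociclib (limma adjusted p = 0.00757) and 0.34 ± 0.05 with the combination (limma adjusted p = 0.00132). NEIL1 (ENSG00000140398, chr15:75346955-75357114, plus strand) shares 1831 of its 6938 exon bases with MAN2C1, a cytosolic mannosidase on the opposite strand. MAN2C1 rose with palbociclib by 0.42 ± 0.06 (limma adjusted p = 0.00108) and with the combination by 0.41 (limma adjusted p = 0.000826), the direction of NEIL1, and its part in the NEIL1 value was not tested.

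OGG1 (ENSG00000114026, chr3:9749944-9788219, plus strand) shares 356 exon bases with TADA3, a subunit of histone acetylation complexes, and 2180 with CAMK1, which averaged 0.784 FPKM. TADA3 fell with palbociclib by 0.20 on the log2 scale (limma adjusted p = 0.0102) and with the combination by 0.28 (limma adjusted p = 0.00191), the direction of OGG1, and its part in the OGG1 value was not tested. MPG (ENSG00000103152, chr16:77007-85853, plus strand) shares 453 exon bases with NPRL3, whose log2 fold change was 0.15 with palbociclib (limma adjusted p = 0.0797) and 0.17 with the combination (limma adjusted p = 0.0561). RHBDF1, which starts 652 bases from MPG, rose by 0.65 with palbociclib, 0.76 with the combination and 0.34 with olaparib, in each case past the limma threshold. APEX1 (ENSG00000100823, chr14:20455191-20457772, plus strand) shares 54 exon bases with PIP4P1, which ran the other way with palbociclib (0.15 on the log2 scale, limma adjusted p = 0.0405), and starts 86 bases from OSGEP, which did not pass the test with palbociclib (-0.11, limma adjusted p = 0.0846). UNG had no neighbour by the same rule. XRCC1 (chr19:43543040-43580473, minus strand) shares 224 exon bases with L34079.1 on the same strand, and 537 with L34079.3 and 68 with L34079.2 on the opposite strand. L34079.2 averaged 0.0802 FPKM over the 8 libraries, and L34079.1 and L34079.3 had no value. PINLYP overlaps with XRCC1, RPL5P23 with POLB (chr8:42338454-42371808, plus strand) and AC027627.1 with NEIL3, each without shared exon bases.

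**Figure D3:**
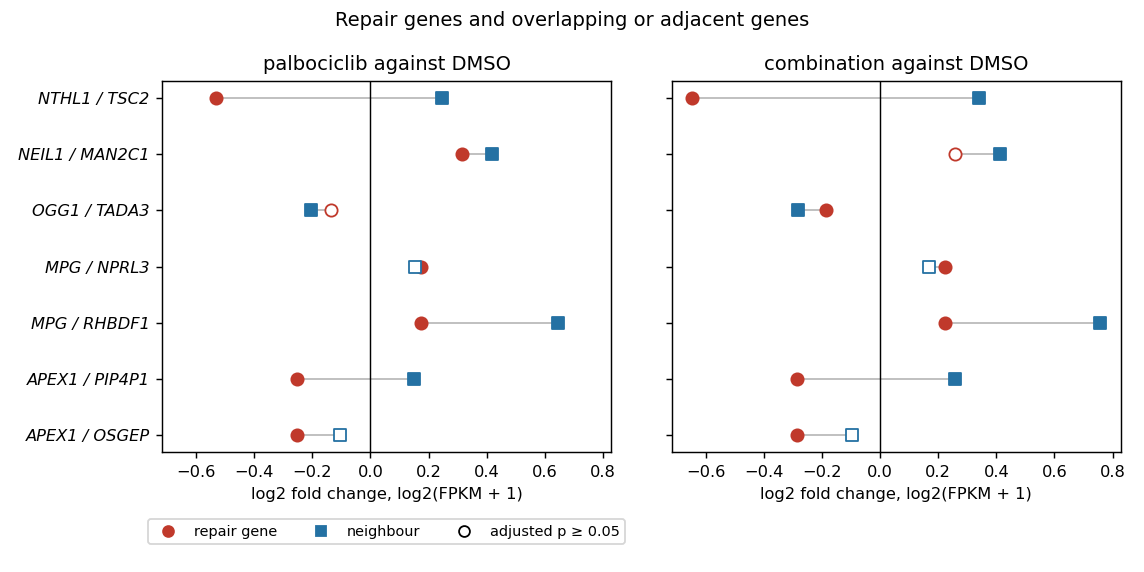
Log2 fold change on the log2(FPKM + 1) scale of 5 members (circles) and of a gene that overlaps with each or starts near it (squares), with palbociclib in the left panel and the combination in the right, each against DMSO. Filled symbols passed an adjusted p of 0.05; NTHL1 at -0.53 and TSC2 at 0.24 with palbociclib lie on opposite sides of 0, and NEIL1 at 0.31 and MAN2C1 at 0.42 on the same side.

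The other genes of the pathway, a list of 30 of which 29 were tested, fell in larger number than they rose. APLF, a late-step factor with a mean of 0.242 FPKM, was not tested. With palbociclib 21 of the 29 fell, 2 rose and 6 did not pass, where 31.4% of all genes tested were called lower and 18.7% higher. The 6 were SMUG1, MUTYH, MBD4, NEIL2, PARG and POLD2. Their palbociclib means were, in this order, 102.6%, 110.0%, 89.2%, 89.9%, 92.2% and 97.2% of the DMSO mean. With the combination 23 fell, 2 rose and 4 (SMUG1, MUTYH, MBD4 and POLD2) did not pass. There 35.3% of all genes tested were called lower and 21.5% higher. With olaparib 6 fell (TDG, FEN1, APTX, HMGB1, POLD3 and DUT) and none rose, a count that dropped to 0 without DMSO replicate 1, DMSO replicate 2, olaparib replicate 1 or olaparib replicate 2. The median log2 fold change of the list was -0.08 with olaparib, -0.31 with palbociclib and -0.36 with the combination, against the medians of all genes given above. In the combination against olaparib 20 fell and 2 rose, where 27.4% of all genes tested were called lower and 17% higher. With olaparib 10.5% of all genes were called lower, beside the 6 of 29 given above. Against palbociclib none passed in limma, with 5 at an unadjusted p under 0.05 and 1 called by voom, and for the departure from additivity none passed in limma or voom, with 3 at an unadjusted p under 0.05.

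FEN1, POLD3 and PCNA had the largest falls of the list with palbociclib and with the combination. FEN1, which trims the displaced flap in long-patch repair, averaged 55.3 ± 0.638 FPKM with olaparib, 35.2 ± 0.937 with palbociclib and 30.3 ± 1.54 with the combination, against 63.8 ± 1.27 with DMSO (SD, n = 2 each). Its log2 fold change was -0.84 ± 0.04 with palbociclib (SE; limma adjusted p = 4.15e-05) and -1.05 ± 0.04 with the combination (limma adjusted p = 1.40e-05). POLD3, a subunit of polymerase delta, fell by 0.88 with palbociclib and 0.98 with the combination, and PCNA, the sliding clamp, by 0.80 and 0.82, all past the limma threshold. PCNA averaged 214.9 FPKM with olaparib, 113.9 with palbociclib and 112.9 with the combination, against 199.6 with DMSO. RFC1, a subunit of the loader of the clamp, fell by 0.50 with palbociclib and 0.55 with the combination. LIG1, the ligase of replication and long-patch repair, fell by 0.40 with palbociclib (limma adjusted p = 0.00137) and 0.46 with the combination (limma adjusted p = 0.000537), and LIG3, the partner of XRCC1, by 0.42 (limma adjusted p = 0.000293) and 0.43 (limma adjusted p = 0.000177).

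The targets of olaparib were also lower with palbociclib. PARP1 averaged 99.7 ± 1.20 FPKM with olaparib, 74.8 ± 0.525 with palbociclib and 72.2 ± 0.833 with the combination, against 107.1 ± 0.164 with DMSO. Its log2 fold change was -0.51 ± 0.03 with palbociclib (SE; limma adjusted p = 5.47e-05), -0.56 ± 0.03 with the combination (limma adjusted p = 2.03e-05) and -0.10 ± 0.03 with olaparib (limma adjusted p = 0.0661). After quantile normalisation PARP1 fell by 0.29 with palbociclib and by 0.26 with the combination, both past the threshold. PARP2 fell by 0.50 with palbociclib (limma adjusted p = 0.000800) and 0.54 with the combination (limma adjusted p = 0.000411), and its value with olaparib was -0.23 (limma adjusted p = 0.0563).

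Enzymes that clean the nucleotide pool and partner proteins moved the same way. DUT, which removes dUTP, fell by 0.57 with palbociclib and 0.68 with the combination. NUDT1, which removes oxidised dGTP, fell by 0.55 with palbociclib and 0.61 with the combination. HMGB1, a chromatin protein that aids long-patch repair, fell by 0.59 with palbociclib and 0.69 with the combination (0.36 and 0.39 after quantile normalisation). TDG, a glycosylase of thymine and of oxidised methylcytosine, fell by 0.36 with palbociclib (0.23 after quantile normalisation) and 0.57 with the combination. All of these passed the limma threshold. The 2 genes that rose were POLL and MGMT. POLL, a polymerase related to POLB, rose by 0.26 with palbociclib and 0.31 with the combination, and MGMT, which reverses guanine alkylation directly, by 0.19 and 0.24.

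**Figure D4:**
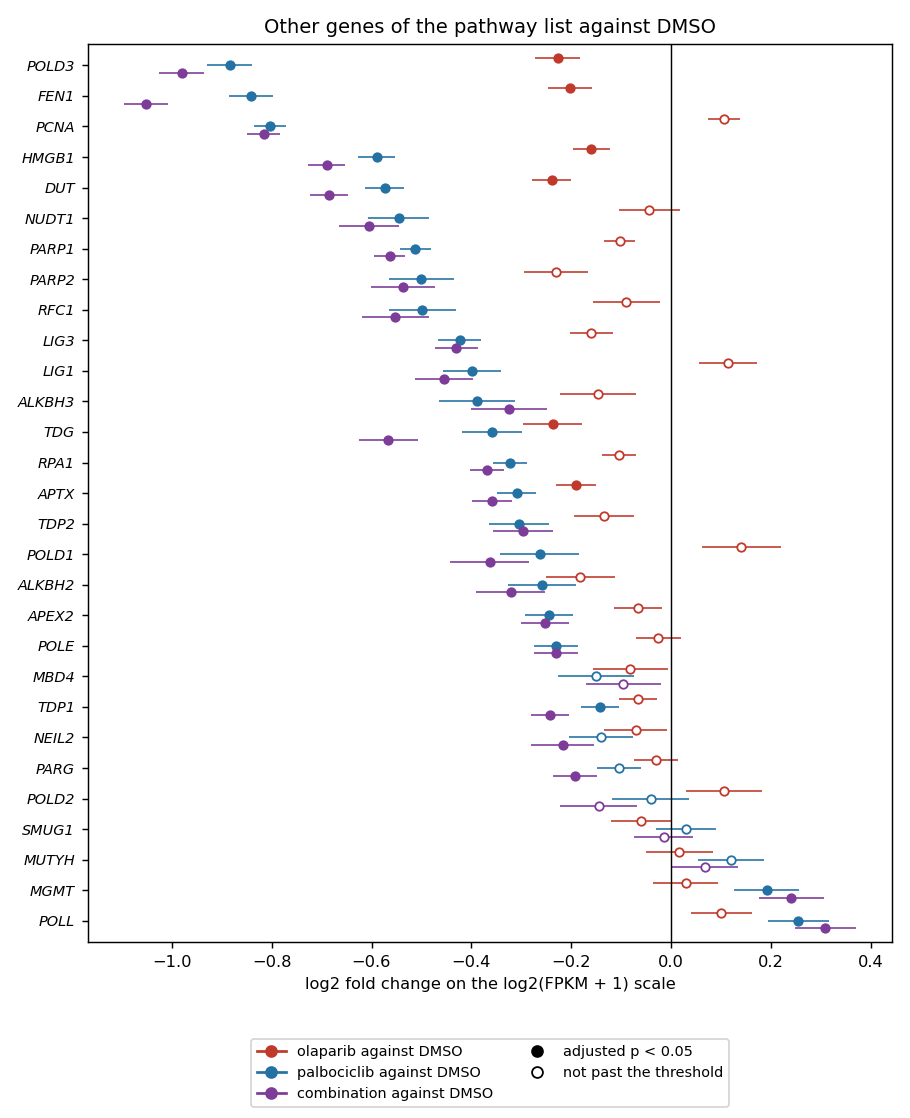
Log2 fold change against DMSO on the log2(FPKM + 1) scale, with SE, for the 29 tested genes of the pathway list with olaparib, palbociclib and the combination. Filled points passed a limma adjusted p of 0.05; POLD3, FEN1 and PCNA lie farthest to the left with palbociclib (-0.88, -0.84 and -0.80), and POLL farthest to the right at 0.26.

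Genes of other programmes moved in the same libraries as the members. Of 15 proliferation genes, all 15 fell with palbociclib (median log2 fold change -0.78) and all 15 with the combination (-0.88), and 5 fell with olaparib (-0.15). Of 10 p53 target genes, all 10 rose with olaparib (median 0.83), 7 rose and 1, MDM2, fell with palbociclib (median 0.25), and 9 rose with the combination (median 0.70). Of all genes tested, 31.4% were called lower with palbociclib, 35.3% with the combination and 10.5% with olaparib. Called higher were 18.7%, 21.5% and 4.13%. The part of either list in the values of the members was not tested.

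The genes nearest in pattern were taken by the smallest root mean square difference in log2(FPKM + 1), centred on the mean, over the 8 libraries. For NEIL3 they were SMC4, a condensin subunit, at 0.0244 and RAD51AP1, a recombination factor, at 0.0250. NTHL1 lay nearest to ICMT, a methyltransferase of prenylated proteins, at 0.0171, and to PGRMC1 at 0.0285. UNG lay nearest to PFKFB3, a regulator of glycolysis, at 0.0244, and to PIGX at 0.0333. APEX1 lay nearest to ZBTB39 at 0.0158 and GPN3 at 0.0169, and OGG1 to DDB1 at 0.0185 and ZNF200 at 0.0222. NEIL1 lay nearest to GREB1 at 0.0350 and TMEM231 at 0.0414, and MPG to SMAD3, a mediator of TGF-beta signalling, at 0.0228 and SEMA4C at 0.0271.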

How the data were processed

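RNA of 8 A2780 libraries was measured as FPKM, which the authors computed and deposited as 1 table with no other unit. CASAVA 1.8, STAR 2.5.1b, HTSeq 0.6.0, GRCh38 and hg38 are named without roles, per the submitters' processing notes; the sources used here do not state the strand setting. Ensembl IDs were matched to symbols and positions in GENCODE v29 on GRCh38, for 30945 of 31721 IDs. A limma fit (3.58.1, R 4.3.3) on log2(FPKM + 1), with 1 mean per group, 4 residual degrees of freedom and a trended prior, was run over 12443 genes with a mean of at least 1 FPKM, and p-values were two-sided and Benjamini-Hochberg adjusted over all of them at a threshold of 0.05. An exact permutation test of 2 libraries against 2 could not go below p = 0.333. The fit was tested on simulated data.

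FPKM values gave whole reads, within 0.01 of a read in all 8 libraries, for 90.3% of genes, and limma's voom on those reads was an alternative; of 11140 genes it called 2915 with olaparib, 6337 with palbociclib and 6890 with the combination, each against DMSO. Other alternatives were a pseudocount of 0.1, no filter, a filter at 0.5 FPKM, TPM, quantile normalisation, only the groups compared, a replicate block, and leaving out each library.

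All 9 members were named. Of the pathway list, those called against DMSO with an absolute log2 fold change of at least 0.5 were named. PARP1, PARP2, LIG1, LIG3 and FEN1 were named in any case. MDM2, APTX, POLL, MGMT, APLF, SMUG1, MUTYH, MBD4, NEIL2, PARG and POLD2 were named after their values were seen. A gene of the pathway list is not reported here and was left out of its counts. Members and lists were chosen with earlier results of these data known. RefSeq windows were searched for 8 of 9 members, and POLB, on chromosome 8, was left out of the search.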

Additional observations from a re-analysis of the deposited data

How the results depend on the processing

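Of 855 member values under an alternative, 781 kept their direction and their side of the threshold, 35 were no longer past it, 13 passed newly and 26 changed sign; none of the 26 was called, and the largest was 0.07 in size. For POLD3, FEN1, PCNA, HMGB1, DUT, NUDT1, PARP1, PARP2, RFC1, LIG3, LIG1 and TDG, all 382 values with palbociclib or the combination against DMSO, alternatives chosen after seeing the data, kept direction and call; their values with olaparib were not recomputed singly. The falls of NEIL3, NTHL1 and UNG with palbociclib and with the combination were called under every alternative run.

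The 1 member called with olaparib became 0 with a pseudocount of 0.1, no filter, a filter at 0.5 FPKM or only the groups compared, and ran from 0 to 1 when 1 library was left out (1 only without either combination library). The pathway count with olaparib was 1 with no filter, 2 on TPM and 2 after quantile normalisation (1 higher and 1 lower in either), and ran from 0 to 7 when 1 library was left out. The pathway count of the combination against palbociclib was 1 with voom. Over all genes tested, the calls with olaparib numbered 1821 in limma on FPKM, 2915 with voom and 1000 after quantile normalisation, and those of the combination against palbociclib 3, 285 and 17, with 12 on TPM. Member counts with 1 library left out ran from 4 to 6 with palbociclib, 4 to 6 with the combination and 4 to 5 for the combination against olaparib.

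Values that changed sign on TPM were APEX1 with olaparib (0.00432), XRCC1 with palbociclib (0.0430), POLB with the combination (0.000278), XRCC1 in the combination against olaparib (0.0157) and APEX1 in the combination against palbociclib (0.00558). After quantile normalisation they were APEX1 with olaparib (0.0437), NEIL1 with olaparib (-0.000744), XRCC1 with palbociclib (0.0235), XRCC1 in the combination against olaparib (0.0175) and APEX1 in the combination against palbociclib (0.0640). With 1 library left out, NEIL1 with olaparib ran from -0.0408 to 0.131 and XRCC1 with the combination from -0.00819 to 0.0805. In the combination against olaparib, MPG ran from -0.0369 to 0.127 and XRCC1 from -0.131 to 0.0190, and against palbociclib MPG ran from -0.00471 to 0.0976 and POLB from -0.0520 to 0.124. Departures from additivity ran from -0.0767 to 0.0736 for XRCC1, -0.0282 to 0.0838 for APEX1, -0.00234 to 0.101 for OGG1 and -0.153 to 0.0235 for POLB. The cause was not tested.

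The replicate numbers did not pair the samples: correlations of same-numbered deviations lay between -0.05 and 0.03 over 6 pairs of groups. With the replicate block, 1 member was called with olaparib, 6 with palbociclib, 6 with the combination, 4 in the combination against olaparib and 0 in both other tests. Depth limits NEIL3, POLB and NEIL1 most, at 152, 155 and 177 reads in their lowest libraries.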
